A study of Mus musculus with 2 samples.

Results

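The miR-192, miR-194 and miR-215 miRNAs were followed in exosomes released by cultured mouse islets, by taking the rows of the deposited table that carry 1 of 5 mature names: mmu-miR-192-5p, mmu-miR-192-3p, mmu-miR-194-5p, mmu-miR-194-2-3p and mmu-miR-215-5p, written below without the species prefix. Of the 5 names, 4 are among the 677 known mouse miRNAs with a row in a table of 2083 entries. The rule goes by name and not by value, but the names were picked with earlier results of these data known. Small RNA was sequenced from vesicles of C57BL/6 islets, which had been taken from mice on a high-fat diet with 60% fat (HFD) or a normal chow diet with 4% fat (NCD). The islet culture medium held no serum exosomes, and the vesicles were pelleted from their supernatants by ultracentrifugation. Each diet has 1 library, with 2020831 counts for HFD and 2417589 for NCD. The sources used here do not state the number of mice or cultures per library, nor the age and sex of the mice. The spread among animals is therefore unknown, differences are those of 2 single libraries, and the intervals are 95% exact intervals that cover counting error only. The islet label was checked with miR-375-3p, the leading miRNA of hormone-secreting islet cells, which had 83261 counts per 1000000 counts of the library (CPM) in HFD and 81756 CPM in NCD. miR-122-5p, the main hepatocyte miRNA, was more abundant still, at 241944 CPM in HFD and 321158 CPM in NCD.

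A miRNA is cut from a hairpin precursor, and the arm that is kept, the guide, finds its target mRNAs mainly through its seed, the bases near its 5′ end. The miR-192, miR-194 and miR-215 hairpins lie in a pair of duplicated clusters, each with a miR-194 copy next to a miR-192 or miR-215 copy. They are abundant in the gut, liver and kidney, and in human cells they are induced by p53. In mouse kidney mesangial cells miR-192 is known to repress Zeb2, a repressor of E-cadherin and of collagen genes.

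The mature sequences are shown because they decide which members share targets and which could exchange reads. They are RefSeq sequences on GRCm38.p6, written 5′ to 3′ with the seed (bases 2 to 8) in capitals, first the members and then the other arms of the same hairpins.
miR-192-5p: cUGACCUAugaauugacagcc
miR-215-5p: aUGACCUAugauuugacagac
miR-194-5p: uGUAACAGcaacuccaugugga
miR-192-3p: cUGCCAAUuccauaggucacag
miR-194-2-3p: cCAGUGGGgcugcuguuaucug
miR-194-1-3p: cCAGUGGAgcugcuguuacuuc
miR-215-3p: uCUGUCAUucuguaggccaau
miR-192-5p and miR-215-5p share the seed UGACCUA, and of 1679 mature mouse names searched these were the 2 that carry it. Counted from 1 at the 5′ end of miR-192-5p, they differ by 3 substitutions in 21 bases, C1A, A12U and C20A, all outside the seed. The next closest sequence to miR-192-5p had 6 mismatches. miR-194-5p has the seed GUAACAG, which no other of the 1679 names carried, and its closest other sequence had 7 mismatches. The 3p arms of the 2 miR-194 hairpins differ by A8G, C19U, U20C and C22G, counted from the 5′ end of miR-194-1-3p, so that the first of these changes the seed.

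The loci of the hairpins decide which members can be assigned to a single place, and the hairpins of the chromosome 19 cluster are printed here. Mature arms are in capitals, and both 5p arms come first in their hairpin.
Mir192: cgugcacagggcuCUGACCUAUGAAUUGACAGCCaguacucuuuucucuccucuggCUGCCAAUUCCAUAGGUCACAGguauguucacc
Mir194-2: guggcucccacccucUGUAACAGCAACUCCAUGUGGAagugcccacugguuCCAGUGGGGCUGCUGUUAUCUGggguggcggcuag
Mir194-2 (chr19:6264643-6264728, plus strand, GRCm38) and Mir192 (chr19:6264844-6264932, plus strand) are 115 bases apart and lie outside any gene of GENCODE M21, the nearest being Atg2a, which ends 2307 bases before Mir194-2. Mir194-1 (chr1:185313319-185313385, plus strand) and Mir215 (chr1:185313581-185313692, plus strand) are 195 bases apart. Both are in the non-coding gene 2010103J01Rik, Mir194-1 in its intron and Mir215 in its exon, antisense to an intron of Iars2, which encodes the mitochondrial isoleucyl-tRNA synthetase. miR-192-5p and miR-194-2-3p are thus read from chromosome 19 alone and miR-215-5p from chromosome 1 alone. miR-194-5p is identical at both loci, and its counts cannot be divided between them.

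Of the 5 members 4 had a row in the table. miR-192-3p, the minor arm of its hairpin, had none and is taken as not detected, with no count to state. The table lists 0 entries with 0 counts in both libraries. With 10 counts or more required in the larger of both counts, 3 were measured: miR-192-5p, miR-194-5p and miR-215-5p. A member was called 2-fold different if the log2 ratio of HFD over NCD, computed with 1 CPM added to each level, was at least 1 either way, which is a rule of size and not a test. By this rule miR-192-5p and miR-215-5p were higher in HFD and 0 members were lower. miR-215-5p passed the minimum through HFD alone, where it had to be the higher, so its call follows from the filter, and with a minimum of 100 counts 1 member was higher. Of the 387 measured known miRNAs, 25.3% were higher in HFD and 9.56% were lower, with a median log2 ratio of 0.33.

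miR-192-5p, the main product of the chromosome 19 cluster, carried the difference. It had 6821 counts in HFD and 1754 in NCD, a level of 3375 CPM in HFD (counting interval 3296 to 3456) and 726 CPM in NCD (692 to 760). The HFD library was the high one, and the intervals of the levels did not overlap. Its level was 4.65-fold higher in HFD (4.41 to 4.91), a log2 ratio of 2.22. Among known miRNAs it ranked 35th by count in HFD and 65th in NCD. In the 207 known miRNAs that reached 100 counts in either library, of which 19.3% were 2-fold higher and 5.31% lower, 5 had a higher log2 ratio than miR-192-5p. Only 1 of those 5, the striated muscle miRNA miR-1a-3p, also had more counts in HFD. The place of miR-192-5p among these miRNAs is shown in the plot of ratio against level.

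**Figure D1:**
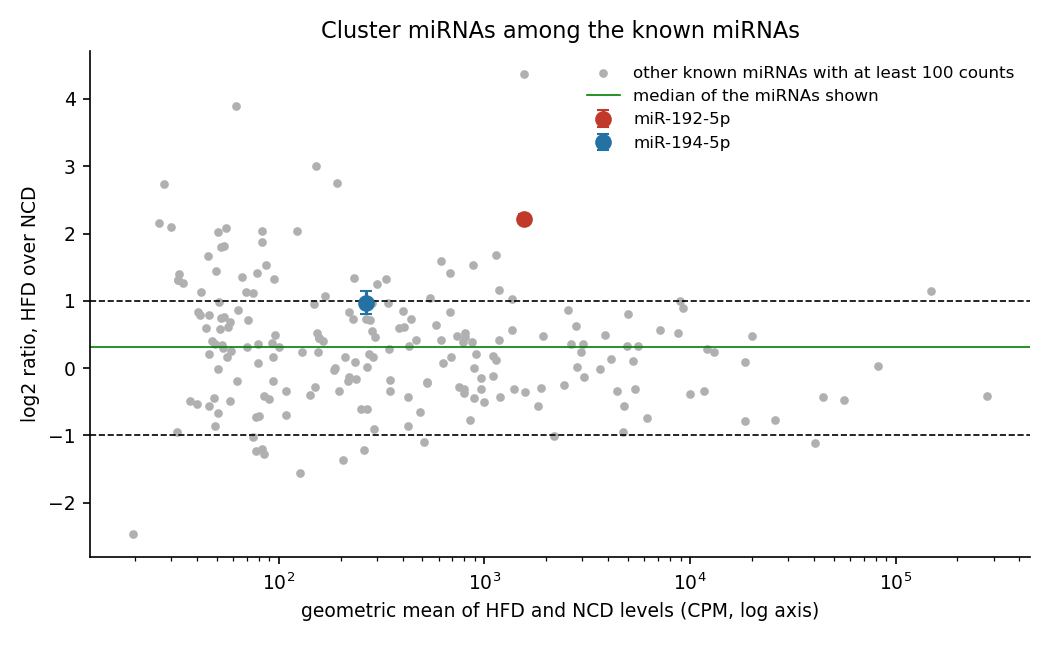
Log2 ratio of HFD over NCD for the 207 known miRNAs that reached 100 counts (vertical axis, no unit) against the geometric mean of their levels in both libraries (CPM, log axis), with dashed lines at a 2-fold difference and bars for the 95% counting interval. miR-192-5p lies at a log2 ratio of 2.22 and miR-194-5p at 0.97, just under the upper line, while the median of all points is 0.31.

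miR-194-5p, the partner in both clusters, which is known in mouse liver as a miRNA of epithelial cells, differed less. It had 750 counts in HFD and 456 in NCD, a level of 371 CPM in HFD (345 to 399) and 189 CPM in NCD (172 to 207). HFD was again the higher library without overlap of the counting intervals. The level was 1.97-fold higher in HFD (1.75 to 2.22), so that the log2 ratio of 0.97 fell just short of the 2-fold rule and the interval reached both sides of it. Its rank by count was 96th in HFD and 118th in NCD, and 100 of the 387 measured known miRNAs had a higher log2 ratio.

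miR-215-5p, which shares the seed of miR-192-5p, had 12 counts in HFD and 0 in NCD. That is a level of 5.94 CPM in HFD (3.07 to 10.4), while a count of 0 in NCD allows up to 1.24 CPM taken as 3 counts, or 1.53 CPM by the exact interval. Set against 3 counts in NCD, its HFD level was 4.79-fold higher, a value that leaves out the counting error of the 12 HFD counts. The exact counting interval, which covers both counts, began at 3.32-fold. Its log2 ratio of 2.79 depends on the 1 CPM added and is no bound: it was 0.67 with 10 CPM and 5.92 with 0.1 CPM. Its sister arm miR-215-3p, not among the 5 members, had 2 counts in HFD and 0 in NCD, too few for a ratio. Both arms of the hairpin were thus seen in HFD alone, at counts near the limit of detection.

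miR-194-2-3p, the rarer arm of the chromosome 19 miR-194 hairpin and the only member that marks that hairpin, had 3 counts in HFD and 7 in NCD. The levels were 1.48 CPM in HFD (0.306 to 4.34) and 2.90 CPM in NCD (1.16 to 5.97), and their counting intervals overlapped. The ratio of 0.513 had an interval from 0.0856 to 2.25, which allows either direction. miR-194-1-3p, which would mark the chromosome 1 hairpin, had no row in the table.

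**Figure D2:**
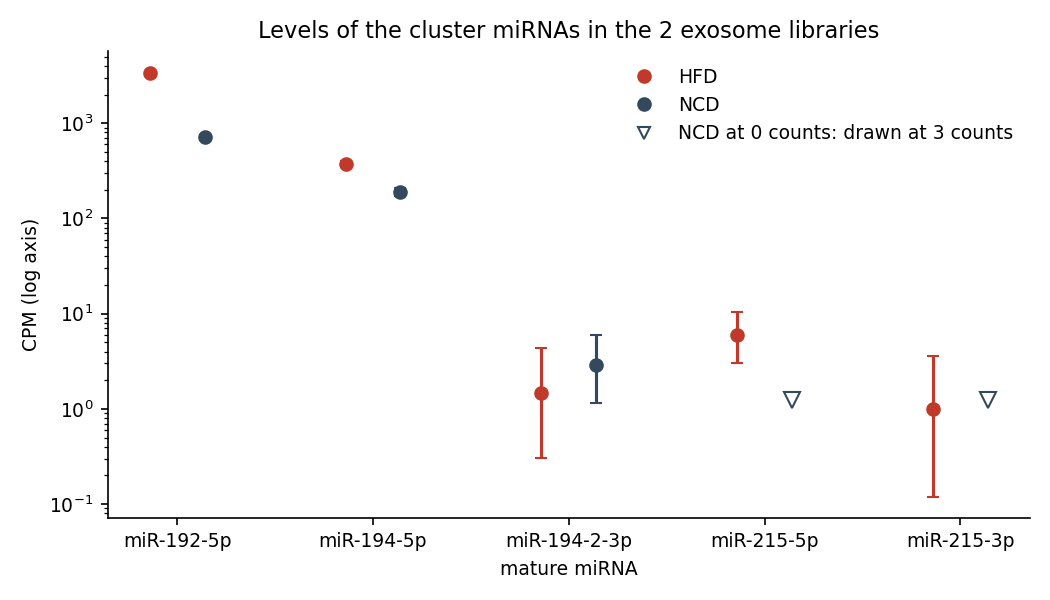
Level of each member with a row, and of miR-215-3p, in HFD (left, red) and NCD (right, dark) in CPM on a log axis, with 95% exact Poisson intervals. Open triangles stand at 3 counts, about the most that 0 counts in NCD allows. The HFD point is above the NCD point for miR-192-5p (3375 and 726 CPM) and miR-194-5p (371 and 189 CPM), and the intervals overlap for miR-194-2-3p.

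The makeup of the group can be compared within each library, where the scaling between libraries drops out. The 4 listed members together took 0.375% of the HFD counts (0.367 to 0.384) and 0.0917% of the NCD counts (0.0879 to 0.0956). miR-192-5p made up 89.9% of these counts in HFD and 79.1% in NCD. There were 9.09 counts of miR-192-5p for each count of miR-194-5p in HFD (8.43 to 9.82) and 3.85 in NCD (3.47 to 4.27). The cluster partners therefore did not differ in proportion: their ratio was 2.36 times as high in HFD (2.08 to 2.69), beyond counting error. G and C make up 47.6% of miR-192-5p and 45.5% of miR-194-5p. miRNAs differ in how well they are ligated and copied, so a ratio of 2 miRNAs within a library is not a ratio of molecules.

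For the seed pair, the proportions could not be told apart. miR-215-5p had 1.76 counts per 1000 counts of miR-192-5p in HFD (0.909 to 3.08), and the exact interval for the 0 counts in NCD reached 2.11 per 1000. The proportion in HFD over that in NCD had an exact interval that began at 0.714, below 1. At the HFD proportion the NCD library would have held 3.09 counts of miR-215-5p (1.59 to 5.39). A difference in miR-215-5p beyond that of miR-192-5p was not detectable at this depth. With 3 substitutions between them, a part of the miR-215-5p counts that are misread miR-192-5p was not tested.

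The 3p arm of the chromosome 19 hairpin was rare beside the pooled 5p counts of both miR-194 hairpins, a share that gives the arm use of neither hairpin. miR-194-2-3p made up 0.398% of its counts and those of miR-194-5p in HFD (0.0822 to 1.16) and 1.51% in NCD (0.610 to 3.09). The intervals of the shares overlapped. The proportion of the 3p arm was 0.261 times as high in HFD, with an interval from 0.0433 to 1.15 that includes 1.

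Both guides were then divided by the most abundant miRNA of each of 6 marker lists, a rule applied after the values had been seen. Per 1000 counts of miR-122-5p there were 13.95 counts of miR-192-5p in HFD and 2.26 in NCD, a ratio 6.18 times as high in HFD (5.86 to 6.51). Against islet miR-375-3p it was 4.57 times as high (4.33 to 4.82), and against erythroid miR-486b-5p 6.44 times (6.11 to 6.79). The excess was 3.34 times against epithelial miR-200c-3p (3.12 to 3.57) and 2.10 times against miR-148a-3p (1.99 to 2.22). The lead miRNA does not stand for its list, though. Against the measured miRNAs of all 6 lists the ratio ran from 0.897 for miR-96-5p to 10.9 for miR-34c-5p. The first of these passed the minimum of 10 counts through HFD alone and the second through NCD alone. Of the 31 list miRNAs with counts in both libraries, the interval lay above 1 for 25, included 1 for 6 and lay below 1 for 0. Within the erythroid list it ran from 2.49 to 6.44 and within the epithelial list from 1.12 to 3.34.

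miR-194-5p stood differently in the same comparison. Relative to miR-122-5p it was 2.61 times as high in HFD (2.32 to 2.94), relative to miR-375-3p 1.93 times (1.72 to 2.18) and relative to miR-200c-3p 1.41 times (1.24 to 1.60). Relative to miR-148a-3p it was 0.888 times as high, with an interval from 0.790 to just over 1. Over the 31 miRNAs the interval lay above 1 for 15, included 1 for 11 and lay below 1 for 5. Those below 1 came from 4 lists. They were islet miR-96-5p, at 0.380 (0.127 to 0.953), hepatocyte miR-122-3p, at 0.437 (0.285 to 0.655), and epithelial miR-203-3p, at 0.472 (0.377 to 0.589). The others were the acinar miRNAs miR-217-5p, at 0.548 (0.401 to 0.743), and miR-216b-5p, at 0.727 (0.562 to 0.938). For the other acinar miRNAs, miR-148a-3p and miR-216a-5p, the interval included 1.

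**Figure D3:**
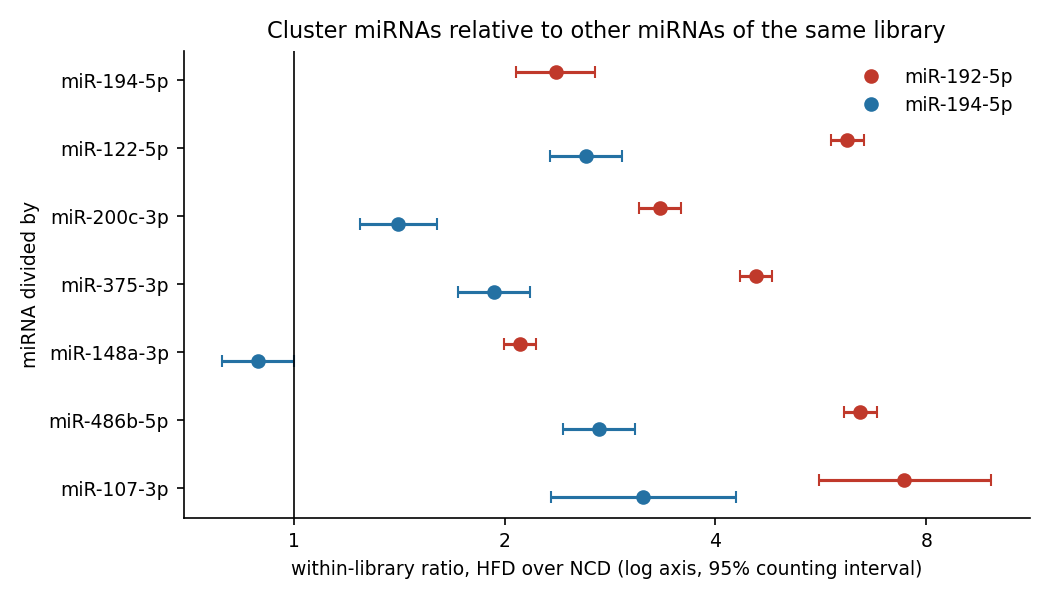
Count of miR-192-5p (red) and miR-194-5p (blue) divided by that of another miRNA of the same library, as HFD over NCD (log axis, no unit) with 95% exact counting intervals. Below miR-194-5p stand the most abundant miRNAs of the hepatocyte, epithelial, islet, acinar, erythroid and p53-responsive lists. miR-192-5p lies between 2.10 and 7.44 and its interval is above 1 in each row, while miR-194-5p lies between 0.888 and 3.15.

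Markers of the cell types known for these clusters did not all differ alike. Of the 4 hepatocyte names, 3 were measured and 2 were higher in HFD, beside 25.3% of all measured known miRNAs. They were miR-122-3p, with 63.3 CPM in HFD and 14.1 CPM in NCD, and miR-802-3p, with 11 counts in HFD and 0 in NCD. For the abundant miR-122-5p the ratio was 0.753 (0.751 to 0.756), and the summed level of the hepatocyte list was 242012 CPM in HFD and 321172 CPM in NCD, nearly all of it miR-122-5p. miR-802-3p passed the minimum of 10 counts through HFD alone, so its call follows from the filter, and it also raises the list's median log2 ratio of 2.09. With a minimum of 100 counts that median was 0.84, with 10 CPM added 0.63, and with the GC trend described below removed 2.76. With each of these settings 1 miRNA of the list was higher. The value of 2.76 can therefore not be a median over all 3. Of the 7 epithelial names, 6 were measured, 3 were higher and 0 were lower, beside 25.3% higher and 9.56% lower over all measured known miRNAs. The median log2 ratio was 0.99, and summed levels were 5514 CPM in HFD and 3157 CPM in NCD. The most abundant, miR-200c-3p, had the lowest ratio, 1.39 (1.34 to 1.46), and miR-203-3p, a miRNA of stratified epithelia, had the highest of those measured, 4.17 (3.46 to 5.05). Other scalings bear on these counts: TMM factors, median-of-ratios size factors, totals reduced by the top 5 miRNAs or by miR-122, and removal of the linear trend of the log2 ratio with GC content. With each of these 1 of the 6 was higher, since miR-200a-3p and miR-200b-3p lay close to the 2-fold line. miR-31-5p had 7 counts in HFD and 1 in NCD.

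Markers of the pancreas itself also differed by unequal amounts. All 4 acinar miRNAs were higher, beside 25.3% of all measured known miRNAs, with a median log2 ratio of 1.28. The ratios ran from 2.15 for miR-216a-5p to 3.59 for miR-217-5p, with 2.21 for the most abundant, miR-148a-3p. miR-216a-5p had 36 counts in HFD and 20 in NCD, and its interval of 1.21 to 3.93 reached below 2-fold. With TMM factors, median-of-ratios size factors, totals without miR-122 or the GC trend removed, 2 of the 4 were higher. Their summed level was 221096 CPM in HFD and 99807 CPM in NCD, nearly all of it miR-148a-3p, which the liver also expresses. Without it the list summed to 249 CPM in HFD and 84.4 CPM in NCD. Among the islet endocrine miRNAs, 2 of 9 passed the rule upwards and 0 downwards, near the 25.3% and 9.56% of all measured known miRNAs, with a median of 0.36 and summed levels of 91491 CPM in HFD and 88173 CPM in NCD. That count was 1 with TMM factors, median-of-ratios size factors, either reduced total, 10 CPM added or a minimum of 100 counts, and the median was -0.05 with the GC trend removed. The extremes were miR-96-5p at 5.18 (2.09 to 15.4) and miR-184-3p at 0.704 (0.662 to 0.747). With 26 counts in HFD and 6 in NCD, miR-96-5p passed the minimum of 10 counts through HFD alone, so its direction follows from the filter. The 5 erythroid miRNAs were all within 2-fold, from 0.722 for miR-486b-5p to 1.87 for miR-451a, with a median of 0.21, which ranged down to -0.12 across the alternatives. Their summed level was 98937 CPM in HFD and 124691 CPM in NCD. Of the miR-486 hairpins this list holds 5p arms alone, while the hepatocyte list holds both arms of miR-122. The arm miR-486a-3p, outside the list, had 876 counts in HFD and 129 in NCD, or 433 CPM and 53.4 CPM. Its log2 ratio was above that of miR-192-5p, so the range within 2-fold holds for the listed arms only. No part of these cell types in the difference of miR-192-5p was tested, and in vesicles a change in which cells released them cannot be told apart from a change within the cells.

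**Figure D4:**
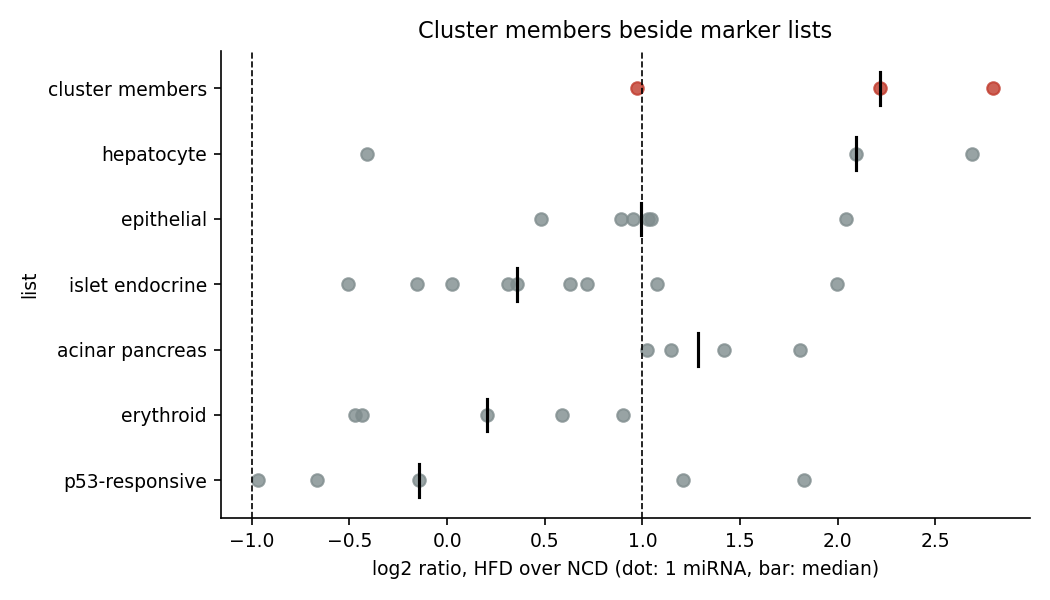
Log2 ratio of HFD over NCD (horizontal axis, no unit) for each measured member of the clusters (red) and of 6 lists of marker miRNAs (grey), with a bar at each median and dashed lines at 2-fold. The cluster members lie at 0.97, 2.22 and 2.79, the last against 0 counts in NCD, while the medians of the lists run from -0.14 (p53-responsive) to 2.09 (hepatocyte).

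miRNAs that respond to p53, as the human relatives of these clusters do, were rare in both libraries. Of the 7 names, miR-34a-5p and miR-34b-5p had no row and 5 were measured. Of those measured 2 were higher and 0 lower, beside 25.3% and 9.56% of all measured known miRNAs. Their counts were low, with summed levels of 71.3 CPM in HFD and 86.9 CPM in NCD. The higher ones were miR-34b-3p, with 17 counts in HFD and 4 in NCD, and miR-34c-3p, with 20 counts in HFD and 9 in NCD. The ratio of miR-34b-3p was 5.08 (1.66 to 20.8). Both passed the minimum of 10 counts through HFD alone, where they had to be the higher, so their direction follows from the filter. The most abundant, miR-107-3p, had 40.1 CPM in HFD and 64.1 CPM in NCD, a ratio of 0.625 (0.472 to 0.823). The lowest ratio, 0.427 for miR-34c-5p, had an interval from 0.120 to 1.26 that allows either direction. With 5 counts in HFD and 14 in NCD, miR-34c-5p passed the minimum through NCD alone. The list had a median log2 ratio of -0.14 that ran from -0.66 to 1.28 across the alternatives. The first end is the value of miR-107-3p alone, with a minimum of 100 counts. The second was found with the GC trend removed, where 2 miRNAs were higher, so it cannot be a median over all 5. In this list 0 members were higher with 10 CPM added or a minimum of 100 counts. Its lowest member, miR-34c-5p, was past 2-fold lower with TMM factors, median-of-ratios size factors, either reduced total or 0.1 CPM added.

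The known miRNAs of 100 counts or more whose log2 ratios were nearest to those of the members were found over the 2 libraries alone. For miR-192-5p they were miR-374b-5p (2.16), the hepatocyte arm miR-122-3p (2.09) and miR-690 (2.08). For miR-194-5p they were miR-23a-3p (0.97), miR-129-1-3p (0.98) and miR-146b-5p (0.96), a miRNA induced by inflammatory signals. None are given for miR-215-5p, whose log2 ratio over 0 NCD counts is set by the CPM added.

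In the authors' deposited table, which gives HFD over NCD, miR-192-5p had a log2 fold change of 2.07 with an FDR of 1.36e-19, and miR-194-5p one of 0.83 with an FDR of 0.00268. In the authors' deposited table miR-215-5p had an FDR of 0.00709 and miR-194-2-3p one of 0.691. The p-values of the authors' deposited table were matched on all 2083 entries by the exact test of edgeR with an assumed biological coefficient of variation of 0.1. They rest on an assumed spread, not on one measured between animals or cultures.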

How the data were processed

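Small RNA of 2 exosome libraries, 1 per diet, was measured. Per the labels' protocols, RNA came from ultracentrifuged vesicles and the library kit was NEBNext for small RNA. The submitters' processing notes name GRCm38 as the build, and the aligner, the counter and the treatment of reads with several matches were not given in the sources used here. Per the file headers, the authors deposited raw counts and TPM for each library, with the log2 fold change, p-value and FDR of their comparison. The deposited TPM equalled counts per 1000000 table counts, with no length scaling. From the counts, CPM, log2 ratios with a pseudocount of 1 CPM and 95% exact (Clopper-Pearson) intervals, conditional on the sum of both counts, were computed with Python 3.11.15 and scipy 1.17.1. Ratios of ratios carry exact conditional odds ratio intervals. Intervals and floors (3 counts for a count of 0) cover counting error only. They treat counts as independent, and would be too narrow where PCR copies were counted as separate reads. No p-value was computed as a result, as 1 library per diet gives no spread. Scaling alternatives used edgeR 4.0.16 (TMM) and DESeq2 1.42.0 (median of ratios), and the ratio and interval code was tested on simulated data.

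Sequences came from RefSeq (GRCm38.p6), matched by miRNA name. A linear trend of the log2 ratio on mature GC content was fitted over the 180 of 207 known miRNAs with at least 100 counts that had a sequence. Its slope was -0.39 per 10 percentage points of GC, with a Pearson correlation of -0.41, so that GC-rich miRNAs had lower ratios. Genes around the hairpins came from GENCODE M21. The rule for named miRNAs took all members, other arms of the same hairpins, the 3 nearest ratios for each measured member, and the most abundant and extreme members of each list. The within-library ratios used all measured list miRNAs and name the most abundant of each list. The members and lists were chosen with earlier results of these data known.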

Additional observations from a re-analysis of the deposited data

How the results depend on the processing

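The log2 ratios of miR-192-5p and miR-194-5p were above 0 under all 11 alternatives. miR-192-5p stayed past 2-fold in each while miR-194-5p stayed within it. Removing or raising the count minimum and using the deposited TPM could not change either value, and the total of known miRNAs hardly did. For miR-192-5p the log2 ratio of 2.22 became 2.07 with TMM scaling, 1.96 by median-of-ratios size factors (equal for both libraries, so raw counts), 2.13 with totals that leave out the top 5 miRNAs of each library and 2.06 with totals without miR-122. For miR-194-5p it was 0.72 with median-of-ratios size factors. These scalings moved the median of known miRNAs with at least 100 counts by -0.15 (TMM), -0.26 (median of ratios), -0.09 and -0.16. miR-192-5p and miR-194-5p thus moved with the other miRNAs. With the GC trend removed, log2 ratios were 2.19 for miR-192-5p, 0.87 for miR-194-5p and 2.40 for miR-215-5p. miR-215-5p, at 2.79, went to 2.73 with TMM and 2.68 with size factors, but to 4.20 without the top 5 miRNAs and 3.14 without miR-122. It had 0.67 with a pseudocount of 10 CPM, 5.92 with 0.1 CPM, and no value with a minimum of 100 counts. Members higher in HFD numbered 1 in place of 2 with 10 CPM added or a minimum of 100 counts. Known miRNAs that were 2-fold higher numbered 98, against 53 with 10 CPM added, 170 with no minimum and 40 with a minimum of 100 counts. Those lower numbered 37, against 10, 81 and 11. No paired analysis was possible because each diet has 1 library, which also left no replicate to leave out. Depth limits the values of miR-215-5p and miR-194-2-3p, which rest on 12 counts or fewer.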

Other observations

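miR-192-5p and miR-194-5p come from neighbouring hairpins yet differed by 1.24 in log2 ratio. This comparison was made after the values were seen. Among known miRNAs with at least 100 counts whose hairpins lie on the same strand within 10 kb, 132 pairs could be formed from 80 miRNAs, and many pairs share a miRNA. Their median difference in log2 ratio was 0.48, and 20 pairs differed by at least 1. The miR-192-5p and miR-194-5p pair was exceeded by 7 pairs, among them miR-221-3p (0.84) with miR-222-3p (-0.76), and miR-199a-3p (0.45) with miR-214-3p (-0.91). Within 1 kb it was exceeded by 2 of 47 pairs. With a minimum of 10 counts it was exceeded by 150 of 485 pairs, whose median difference was 0.82. miR-194-5p and some other miRNAs have a second locus, so a pair here need not come from 1 transcript.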
